A study of Mus musculus with 9 samples.

Results

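The genes described here encode structural proteins of central nervous system myelin and enzymes made beside them: Mbp, Mog, Mag, Mobp, Opalin, Cnp, Mal, Cldn11 and Ugt8a. They are a list of names with no threshold on a measured value, put together with earlier results of these data known, and they are 9 of the 18138 genes in the deposited table. All 9 passed the filter on low counts, which left 14756 genes for testing. RNA was sequenced from mouse brain in 9 libraries that form 3 groups of 3. The control group (libraries 4, 5 and 6) is labelled only as control, and whether it had a sham operation was not given. The MCAO group (libraries 4, 5 and 6) had middle cerebral artery occlusion, a model of ischaemic stroke in which a large artery of the brain is blocked. The hypidone group (libraries 2, 7 and 8) also had the occlusion and received hypidone hydrochloride, a serotonergic antidepressant candidate with the code YL-0919, at 5 mg/kg for 7 days. Strain, age, brain region, hemisphere and the interval from occlusion to sampling were not given. The labels do not say whether each library came from a separate animal, so the p-values measure the spread between these libraries, which may be technical.

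Myelin is the multilayered membrane that oligodendrocytes wrap around axons, and it allows fast conduction of nerve impulses. Compact myelin is held together from the inside by myelin basic protein, while other proteins sit at the outer surface, at the face next to the axon, or in the tight junctions between the wraps. Oligodendrocytes are vulnerable to loss of blood flow, and damaged myelin can be rebuilt by newly formed oligodendrocytes.

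Promoter sequences are shown for Opalin, Mog and Ugt8a, whose levels fell after the occlusion, and for Mobp, whose level did not pass the test. Each runs from 250 bases before to 50 bases after the annotated start of the gene, 5′ to 3′ on the strand of the gene. The sequences are from RefSeq on the build GRCm38.p6, in which 8 of the 9 members matched (not Mbp). Opalin lies at chr19:41077064-41077363 on the minus strand and Mog at chr17:37023349-37023648 on the minus strand. Ugt8a lies at chr3:125938603-125938902 on the minus strand and Mobp at chr9:120149492-120149791 on the plus strand. Capitals mark the letters of the SOX family motif (ACAAAG) and of the MYRF motif (CTGGCAC or CTGGTAC) on either strand. SOX10 and MYRF are transcription factors that oligodendrocytes need to make myelin.
Opalin: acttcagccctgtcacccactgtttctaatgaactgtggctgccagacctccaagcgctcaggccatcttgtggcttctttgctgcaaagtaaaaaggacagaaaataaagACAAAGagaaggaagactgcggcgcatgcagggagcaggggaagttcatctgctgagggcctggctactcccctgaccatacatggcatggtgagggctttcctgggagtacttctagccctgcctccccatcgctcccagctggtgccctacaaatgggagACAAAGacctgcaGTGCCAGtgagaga
Mog: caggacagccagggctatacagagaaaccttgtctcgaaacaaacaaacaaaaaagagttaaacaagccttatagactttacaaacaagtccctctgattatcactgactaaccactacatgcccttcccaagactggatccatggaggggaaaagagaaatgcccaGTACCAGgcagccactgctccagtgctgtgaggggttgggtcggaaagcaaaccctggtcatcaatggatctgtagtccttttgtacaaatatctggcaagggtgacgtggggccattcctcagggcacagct
Ugt8a: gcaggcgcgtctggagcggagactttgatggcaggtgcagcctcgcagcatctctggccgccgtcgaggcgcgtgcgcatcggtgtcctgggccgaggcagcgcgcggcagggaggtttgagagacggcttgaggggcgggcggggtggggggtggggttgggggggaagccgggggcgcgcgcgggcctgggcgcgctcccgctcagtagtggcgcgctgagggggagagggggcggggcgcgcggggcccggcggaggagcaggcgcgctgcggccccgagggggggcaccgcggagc
Mobp: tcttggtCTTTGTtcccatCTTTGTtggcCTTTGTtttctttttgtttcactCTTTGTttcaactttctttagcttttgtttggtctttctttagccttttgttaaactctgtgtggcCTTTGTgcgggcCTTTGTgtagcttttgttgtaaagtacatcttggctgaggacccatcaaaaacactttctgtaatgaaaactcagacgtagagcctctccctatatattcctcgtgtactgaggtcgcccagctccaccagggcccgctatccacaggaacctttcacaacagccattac

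The Mobp window held 6 copies of the SOX letters, all before the start, and it was the only 1 of 32851 mouse promoter windows of this length with at least 6. Opalin held 2 SOX matches and 1 MYRF match. Mog held 1 MYRF match and no SOX match, and Ugt8a held neither. The Ugt8a window instead held 3 copies of GGGCGG, the SP1 motif, of which a pair overlap. Over all windows, 18.7% held the SOX letters, 7.10% a MYRF match and 35.7% the SP1 letters. Cnp held 1 SOX and 1 MYRF match, as did 2 of the 3 annotated windows of Mag, and Mal and Cldn11 held neither. The E-box letters CAGCTG, present in 16.3% of all windows, occurred only in Opalin among the 8 members, and TATAAA, present in 13.6%, occurred in none. No SOX match overlapped a MYRF match in the windows printed. These matches describe letters in the windows and show no binding.

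Sequencing depth was similar across the series, at 32075682 to 37325027 counts per library. Counts of the members ran from 260 for Opalin in MCAO 6, with an exact Poisson 95% interval of 229 to 294, to 161190 for Mbp in control 5. Such intervals cover counting error only. All 9 members were detected in every library. Of 8 genes listed for Schwann cells, which make peripheral myelin, the myelin protein gene Pmp2 had 0 to 1 counts. The 6 of these 8 that were tested summed to 104 to 175 CPM in each library. In MCAO against control 2 of the 6 rose and 1 fell. Control 5 stood apart from controls 4 and 6. It had the highest level of all 9 libraries for 8 members (all but Cldn11), and over the 9 members it was at 1.52 to 2.20 times the mean of the other controls. Control 5 also had a mean of 6.57 for 7 hippocampal neuron genes on the log2 CPM scale, against 3.37 or less elsewhere, and of 4.61 for 8 cortical projection neuron genes, against 5.78 or more elsewhere. Choroid plexus transcripts were at a mean of 3.04 in control 5 and at 0.66 or less elsewhere. MCAO 5 had the highest mean of 11 phagocytic microglia genes, at 8.07, against 5.82 in MCAO 6, 3.87 in MCAO 4 and 2.57 to 3.85 in the other groups. It also had the highest mean of 10 meningeal and fibroblast genes, at 6.39, against 2.96 to 5.09 elsewhere. Between MCAO and control as groups, 9 of the 11 phagocytic microglia genes and 2 of the 10 meningeal and fibroblast genes rose, and 1 of 12 neuron genes fell. Over all genes tested, 10.6% rose and 9.81% fell. The part of these differences in the results on the members was not tested, and values without control 5 or MCAO 5 are given where they matter.

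Levels can be compared between genes only per length, so the authors' FPKM values (fragment counts divided by gene length and library total) were used for the order of the members. In the controls Mbp, the myelin basic protein of compact myelin, had by far the highest mean level at 645 FPKM. Cnp, an enzyme of the cytoplasmic channels of the sheath, followed at 96.5 FPKM, and Mal, a proteolipid of membrane sorting, at 83.1. Cldn11, the claudin of myelin tight junctions, had 64.7 FPKM and Mobp, a small basic protein of compact myelin, 61.9. Mag, an adhesion protein facing the axon, had 47.0 FPKM and Mog, a glycoprotein of the outer surface, 36.3. The lowest levels were those of Opalin, a membrane glycoprotein of mature oligodendrocytes, at 12.8 FPKM, and Ugt8a, the enzyme that makes the myelin lipid galactosylceramide, at 6.74. Each step in this order held in all 3 controls except Cldn11 over Mobp, which held in 2 of 3 controls. The order of the group means was the same in the hypidone group. In the MCAO group the mean of Cldn11, 94.4 FPKM, was above those of Mal, 85.0, and Cnp, 75.9. MCAO 5 set that mean: Cldn11 was at 58.5, 153 and 71.6 FPKM in MCAO 4, 5 and 6, and Mal exceeded it in 2 of these 3 libraries. Cnp exceeded Mal in 1 of the 3 MCAO libraries.

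Levels within a gene are given below as CPM, the count as a share of the library total, scaled between libraries by the trimmed mean of M-values (TMM). Fold changes come from edgeR's quasi-likelihood test, fitted to all 9 libraries and all 14756 genes, with Benjamini-Hochberg adjustment over all of them and a threshold of 0.05. In RNA from whole tissue, fewer oligodendrocytes and less RNA per oligodendrocyte cannot be told apart.

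The first comparison asked which myelin genes differed after the occlusion without treatment. Of the 9 members, 3 fell and none rose, while 20.4% of all genes tested passed the threshold, 10.6% in the higher and 9.81% in the lower direction. Opalin, Mog and Ugt8a fell, Mag was just short of the threshold, and Mbp, Cnp, Mal, Cldn11 and Mobp, which had the highest FPKM in the controls, were not called. The median change of the members was -0.39 on the log2 scale, against 0.01 for all genes tested. Without control 5 the members' median was -0.07. Levels in MCAO and control did not overlap for 4 members, all lower after occlusion, while 33.5% of all genes did not overlap, 16.5% higher and 17.0% lower.

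Opalin had the largest change. Controls 4, 5 and 6 had 21.2, 46.1 and 23.6 CPM of Opalin, MCAO 4, 5 and 6 had 8.90, 10.2 and 7.14 CPM, and hypidone 2, 7 and 8 had 19.5, 17.2 and 20.4 CPM; all later values keep this order of libraries. All MCAO libraries lay below every other library, and the hypidone libraries lay just below the lowest control. The means were 30.3 ± 13.7 CPM in control and 8.75 ± 1.54 CPM in MCAO (SD, n = 3 libraries). The log2 fold change of Opalin was -1.79 ± 0.29 (SE; edgeR adjusted p = 0.00665), or 0.289 times the control level. Without control 5 the change was -1.36 (edgeR adjusted p = 0.00541). The authors' deposited table gave Opalin a fold of 0.288 with a q-value of 4.83e-05.

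Mog and Mag, both adhesion-type glycoproteins of the sheath, lay lower in every MCAO library than in any control. Mog was at 44.1, 84.5 and 59.0 CPM in the controls, at 32.8, 35.2 and 29.0 CPM in MCAO, and at 49.9, 36.3 and 41.9 CPM in hypidone. Every MCAO library was also below every hypidone library for Mog. Its log2 fold change was -0.95 ± 0.23 (edgeR adjusted p = 0.0219), and -0.68 without control 5 (edgeR adjusted p = 0.0370). The call for Mog was lost without control 6 (edgeR adjusted p = 0.0588) or MCAO 6 (edgeR adjusted p = 0.0800). Mag was at 80.3, 159 and 128 CPM in the controls, at 68.9, 77.0 and 58.4 CPM in MCAO, and at 112, 68.5 and 77.4 CPM in hypidone. The highest MCAO library and the lowest control were close for Mag. Its log2 fold change was -0.85 ± 0.26 (edgeR adjusted p = 0.0507), and -0.62 without control 5 (edgeR adjusted p = 0.119). Without control 4 the change of Mag was -1.08 and passed the threshold (edgeR adjusted p = 0.0329). The q-value of Mag in the authors' deposited table was 0.0284.

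Ugt8a was at 36.5, 69.3 and 51.3 CPM in the controls, at 16.5, 33.6 and 15.5 CPM in MCAO, and at 54.5, 30.9 and 34.4 CPM in hypidone. MCAO 4 and 6 lay far below all other libraries, while MCAO 5 was just below the lowest control and inside the hypidone range. The log2 fold change of Ugt8a was -1.26 ± 0.36 (edgeR adjusted p = 0.0392). The call was lost without control 4 (edgeR adjusted p = 0.0515), control 5 (0.0892), control 6 (0.0930), MCAO 4 (0.0753), MCAO 6 (0.123), hypidone 7 (0.0561) or hypidone 8 (0.0616), with changes of -1.47 to -1.01. Hypidone libraries enter this comparison through the shared estimate of the spread.

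The genes for the basic proteins of compact myelin were not called. Mbp was at 1945, 4377 and 2478 CPM in the controls, at 2922, 1665 and 2988 CPM in MCAO, and at 2299.5, 1513 and 1907 CPM in hypidone. MCAO 4 and 6 lay above controls 4 and 6, and MCAO 5 lay below all controls. The log2 fold change of Mbp was -0.22 ± 0.35 (edgeR adjusted p = 0.683), and it was 0.19 without control 5. Mobp was at 175, 435 and 221 CPM in the controls, at 352, 238 and 355 CPM in MCAO, and at 235, 133 and 173 CPM in hypidone. All MCAO libraries exceeded controls 4 and 6, and none reached control 5. The log2 fold change of Mobp was 0.19 ± 0.35 (edgeR adjusted p = 0.728), and 0.67 without control 5 (edgeR adjusted p = 0.116). With both control 5 and MCAO 5 left out, a choice made after seeing the data, Mobp rose by 0.86 (edgeR adjusted p = 0.0273). Exons of Mobp overlap those of Gm38642 on the same strand, and reads from the overlap cannot be told apart.

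Mal, Cnp and Cldn11 were not called either. Mal was at 159.9, 334 and 203 CPM in the controls, at 286, 205 and 210.2 CPM in MCAO, and at 216, 127 and 149 CPM in hypidone. The MCAO range lay within the control range, and the log2 fold change was 0.01 ± 0.29 (edgeR adjusted p = 0.987), or 0.36 without control 5. Cnp was at 185, 364 and 232 CPM in the controls, at 194, 223 and 181 CPM in MCAO, and at 226, 168 and 175 CPM in hypidone. Outside control 5 it lay between 168 and 232 CPM in every library. Its log2 fold change was -0.39 ± 0.24 (edgeR adjusted p = 0.272), or -0.07 without control 5. Exons of Cnp overlap those of Dnajc7 on the opposite strand, and the strand setting of the counting was not given in the sources used here. Cldn11 was at 87.0, 168 and 112 CPM in the controls, at 116, 266 and 130 CPM in MCAO, and at 123, 89.1 and 83.3 CPM in hypidone. Its highest value was in MCAO 5, the library with the highest mean of the meningeal and fibroblast genes and also of the phagocytic microglia genes. Hypidone 7 had the next highest mean of the meningeal and fibroblast genes, 5.09, and had Cldn11 at 89.1 CPM. A relation of Cldn11 to these lists was not tested. The log2 fold change of Cldn11 was 0.48 ± 0.35 (edgeR adjusted p = 0.343), or 0.03 without MCAO 5.

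**Figure D1:**
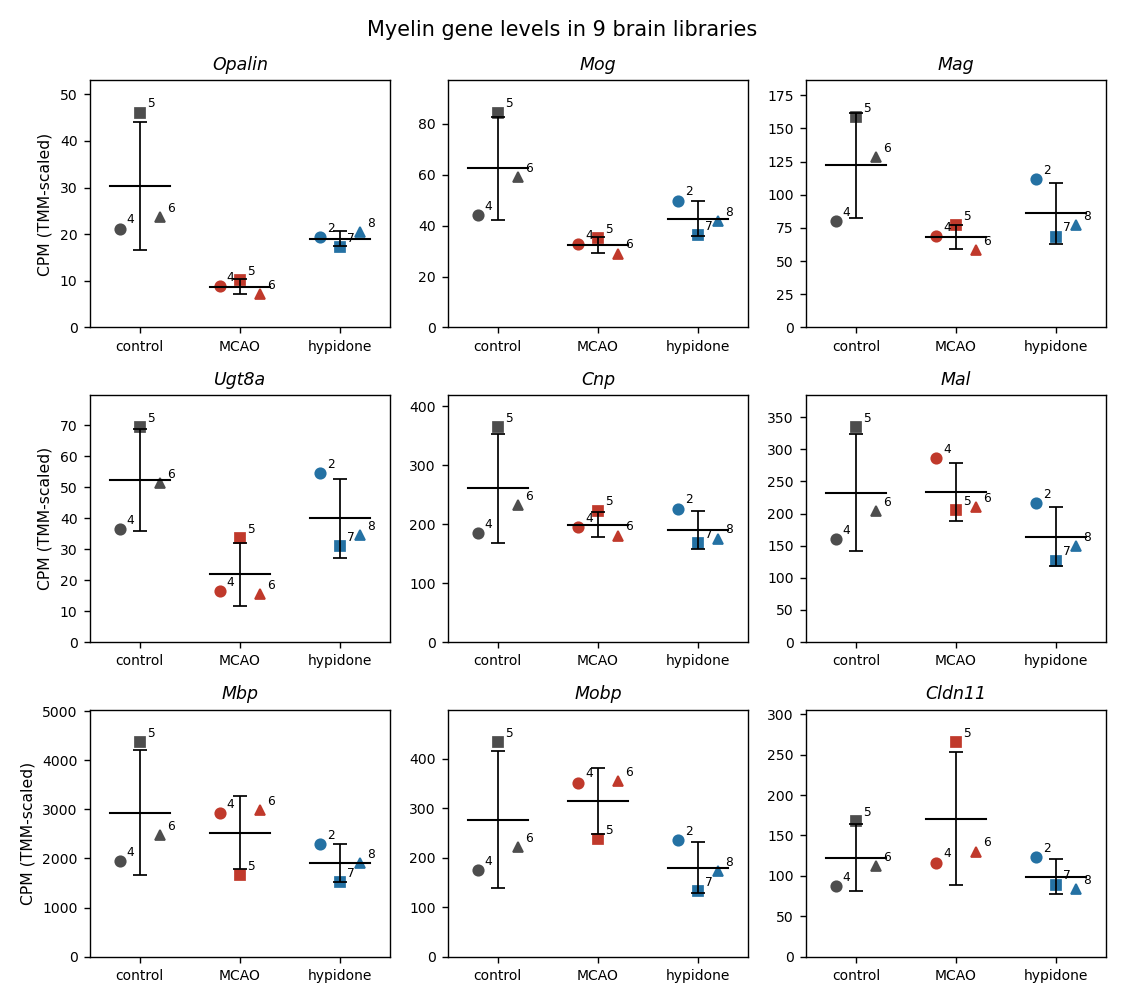
Level of each of the 9 myelin genes in TMM-scaled CPM (y axis, from 0) in the 3 groups. Each point is a library with its number, the long bar is the group mean and the error bar is 1 SD (n = 3). Opalin, Mog, Mag and Ugt8a are lower in every MCAO library than in every control, and control 5 is the highest control for each gene.

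Because control 5 was high for all members, each member was also set against the others within the same library, which does not depend on the scaling between libraries. The relative level is the log2 CPM of a member minus the mean log2 CPM of the 9 members in that library. In the controls the members kept close proportions, with SDs of 0.0276 to 0.189 across the 3 libraries and a median SD of 0.0826. The hypidone libraries had a median SD of 0.0955 and the MCAO libraries one of 0.296. The control SDs include control 5.

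In MCAO the proportions differed from control for 8 of the 9 members without overlap between libraries. Opalin was lower relative to the set by 1.22, Ugt8a by 0.81, Mog by 0.41 and Mag by 0.30, as differences of mean relative level on the log2 scale. Cldn11 was higher by 0.93, Mobp by 0.77, Mal by 0.56 and Cnp by 0.16, while Mbp, at 0.32 higher, overlapped, with MCAO 5 below the controls. For each of the 8 the two-sided exact permutation p was 0.1, the smallest that 3 against 3 libraries allow, and 0.18 after adjustment over 27 such tests. Among non-members set against the same mean of the 9 members, 27.9% did not overlap. Members share variation between libraries, such as the rise of control 5, with the mean subtracted from them. Non-members need not, so that share is not a like background for the members. The 9 relative levels of a library sum to 0, so they are not independent of each other.

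**Figure D2:**
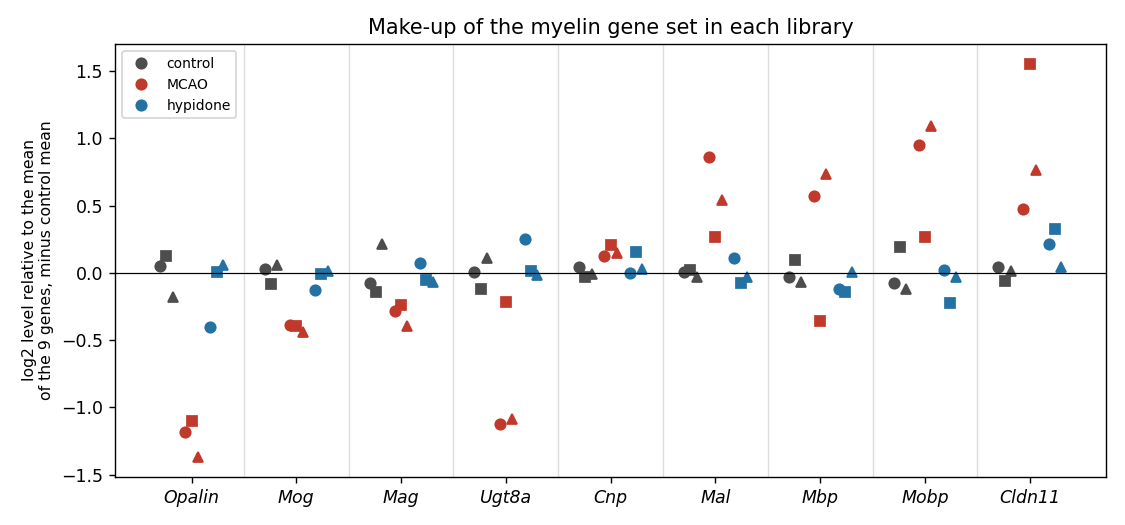
Relative level of each myelin gene in each library (y axis, log2 level relative to the mean of the 9 genes in the same library, minus the mean of the controls). Circles, squares and triangles mark the libraries of a group in order of their number. MCAO points lie below all control points for Opalin, Mog, Mag and Ugt8a and above them for Cnp, Mal, Mobp and Cldn11, and hypidone points overlap the control points for every gene.

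Ratios of counts within single libraries were computed for 9 of the 36 pairs of members. The pairs were picked without a stated rule, so their counts do not stand for all pairs. In MCAO against control 4 pairs did not overlap: Opalin per Mobp, Opalin per Mbp, Mog per Mobp and Mobp per Mbp. Each of these had an unadjusted two-sided exact permutation p of 0.1, the smallest possible. The other 5, Mag, Mog, Cldn11 and Ugt8a per Mbp and Mog per Mag, overlapped. Per 1000 Mobp counts there were 121, 106 and 107 Opalin counts in the controls, 25.3, 43.0 and 20.1 in MCAO, and 82.8, 130 and 118 in hypidone. The 3 MCAO libraries lay below all others, and control 5 was close to control 6. Per 1000 Mbp counts there were 89.9, 99.3 and 89.3 Mobp counts in the controls, 121, 143 and 119 in MCAO, and 102, 87.8 and 90.6 in hypidone. The MCAO libraries were above both other groups in the ratio of the basic protein genes. Ugt8a counts per 1000 Mbp counts were 18.8, 15.8 and 20.7 in the controls, 5.65, 20.2 and 5.18 in MCAO, and 23.7, 20.4 and 18.0 in hypidone. MCAO 5 was thus within the control range for that ratio, and MCAO 4 and 6 were below it. Mog per 1000 Mag counts overlapped between all groups, with 549, 532 and 460 in the controls, 475, 458 and 497 in MCAO, and 445, 530 and 541 in hypidone.

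The members varied in different ways with each other across the 9 libraries. As a description over points that share groups and depth, Pearson's r of log2 CPM was 0.97 for Mog with Mag, 0.93 for Mog with Opalin and 0.90 for Mog with Ugt8a. It was 0.94 for Mobp with Mal and 0.90 for Mbp with Mobp. Cnp had an r of 0.87 with Mag, 0.83 with Mog and 0.62 with Mobp, which were 0.76, 0.55 and 0.31 without control 5. Cldn11 had an r of 0.22 with Mbp, 0.53 with Mobp, 0.56 with Mal and 0.56 with Cnp. Without control 5 these were -0.02, 0.45, 0.48 and 0.59. Opalin with Mobp had an r of -0.09, which was -0.75 over the 8 libraries without control 5. The r of Mog with Mag was 0.95 and that of Mobp with Mal 0.91 without that library.

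The second comparison asked how the members differed between occlusion with and without hypidone hydrochloride. It shares the MCAO libraries with the first, so the 2 sets of values are not independent. Opalin rose and no member passed in the lower direction, while 16.5% of all genes tested passed the threshold, 8.23% in the higher and 8.28% in the lower direction. With limma voom and quality weights 2 members rose and 4 fell (Mbp, Mobp, Mal and Cldn11), where 51.7% of all genes passed. Without control 5 and MCAO 5, 2 members rose and 2 fell (Mbp and Mobp), where 32.3% of all genes passed. The median log2 fold change of the members was -0.07, against -0.04 for all genes tested. Levels did not overlap for 3 members, Opalin and Mog above and Mobp below, while 39.9% of all genes did not overlap, 20.9% higher and 19.0% lower.

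Opalin was at 19.0 ± 1.63 CPM in the hypidone group and 8.75 ± 1.54 CPM in MCAO (SD, n = 3). Its log2 fold change was 1.12 ± 0.29 (edgeR adjusted p = 0.0316), or 2.17 times the MCAO level. The call was lost without MCAO 6 (edgeR adjusted p = 0.112), hypidone 2 (0.0977), hypidone 7 (0.0778) or hypidone 8 (0.105), with changes of 0.99 to 1.19. The authors' deposited table gave a fold of 2.17 with a q-value of 3.84e-06.

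No other member passed the threshold. Ugt8a had a log2 fold change of 0.87 ± 0.36 (edgeR adjusted p = 0.123), which became 1.30 and passed without MCAO 5 (edgeR adjusted p = 0.0251). Mog had 0.40 ± 0.23 (edgeR adjusted p = 0.240) and Mag 0.34 ± 0.26 (edgeR adjusted p = 0.391). Mobp had -0.81 ± 0.35 (edgeR adjusted p = 0.135) and passed without control 5, which enters through the shared spread (-0.80, edgeR adjusted p = 0.0486). Cldn11 had -0.79 ± 0.35 (edgeR adjusted p = 0.141), Mal -0.51 ± 0.30 (edgeR adjusted p = 0.248), Mbp -0.41 ± 0.35 (edgeR adjusted p = 0.437) and Cnp -0.07 ± 0.24 (edgeR adjusted p = 0.863). In the authors' deposited table Mobp had a fold of 0.570 with a q-value of 0.0187, and Cldn11 a fold of 0.579 with a q-value of 0.0746.

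In relative level, 7 of the 9 members did not overlap between hypidone and MCAO. Of non-members 24.1% did not, which is again not a like background. Opalin was higher relative to the set by 1.10, Ugt8a by 0.89, Mog by 0.37 and Mag by 0.29. Mobp was lower by 0.85, Cldn11 by 0.74 and Mal by 0.56, and Mbp and Cnp overlapped. Each of the 7 had an exact permutation p of 0.1, the smallest possible, and 0.18 after adjustment over the 27 tests.

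**Figure D3:**
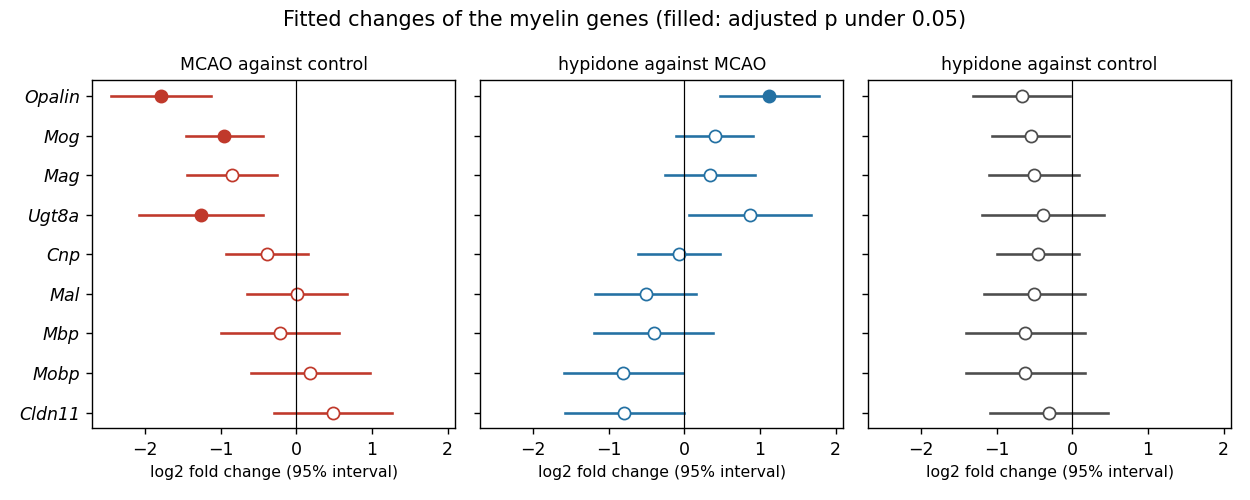
Fitted log2 fold change of each myelin gene (x axis) with its 95% interval in the 3 comparisons, from edgeR's quasi-likelihood fit. Filled points passed an adjusted p of 0.05. They are Opalin, Mog and Ugt8a in MCAO against control and Opalin in hypidone against MCAO, and none in hypidone against control.

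The third comparison set the hypidone group against control. By edgeR's quasi-likelihood test no gene passed the threshold, 0% of the 14756 tested, and DESeq2 called 1 gene overall and no member. All 9 members had negative values, from -0.67 for Opalin to -0.31 for Cldn11 on the log2 scale. Of these, 2 had an unadjusted edgeR p under 0.05, Mog and Opalin, which ranked 74 and 102 by p among the 14756 genes. The next member, Mag, had an unadjusted edgeR p of 0.0837 and ranked 299. The median of the 9 members was -0.51, and -0.15 without control 5. Levels did not overlap for 1 member, Opalin, which was below control, while 6.57% of all genes did not overlap, 3.86% higher and 2.71% lower. In relative level all 9 members overlapped between hypidone and control, and the largest difference was 0.19, for Cldn11. Among non-members 8.37% did not overlap in relative level, again not a like background. A p above the threshold does not show that the groups were alike: the 95% interval of Opalin ran from -1.31 to -0.03 and that of Mbp from -1.41 to 0.16.

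Other genes of mature oligodendrocytes and myelin, 33 in number and all tested, also moved unevenly. In MCAO against control 2 rose and 11 fell, while 10.6% of all genes tested rose and 9.81% fell. The median log2 fold change of the 33 was -0.56, against 0.01 for all genes. Leaving out single libraries gave 4 to 13 that fell, with 4 without control 6 or MCAO 6 and 5 without control 5. Calls over all genes in either direction were 20.4% with all libraries and 19.4% without control 5. They were 7.26% without control 6 and 8.78% without MCAO 6. Apod, a lipid-binding lipocalin, rose from 175 to 1757 CPM, a log2 fold change of 3.33 ± 0.36 (edgeR adjusted p = 0.00221). The 3 MCAO libraries had 843, 2196 and 2232 CPM, and the 6 other libraries had 149 to 263 CPM. The enzyme genes Qdpr, of tetrahydrobiopterin recycling, and Car2, a carbonic anhydrase, fell by 1.23 ± 0.17 and 1.14 ± 0.21, with edgeR adjusted p-values of 0.00435 and 0.00937. Ppp1r14a, an inhibitor of myosin phosphatase, fell by 1.42 ± 0.26 (edgeR adjusted p = 0.00905).

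In hypidone against MCAO, 4 of these 33 genes rose and 3 fell, while 8.23% of all genes tested rose and 8.28% fell. The median of the 33 was 0.22, against -0.04 for all genes. Leaving out single libraries gave 2 to 11 calls in all, with 2 without MCAO 6 or any 1 of the hypidone libraries and 11 without control 5. Calls over all genes in either direction were 16.5% with all libraries and 21.1% without control 5. They were 4.88% without MCAO 6 and 3.65% to 3.96% without 1 of the hypidone libraries. Qdpr rose by 0.91 ± 0.16 (edgeR adjusted p = 0.0107), Apod fell by 2.91 ± 0.36 (edgeR adjusted p = 0.00419), and Sirt2, a deacetylase of the sheath, fell by 0.59 ± 0.12 (edgeR adjusted p = 0.0134). In hypidone against control none of the 33 passed.

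**Figure D4:**
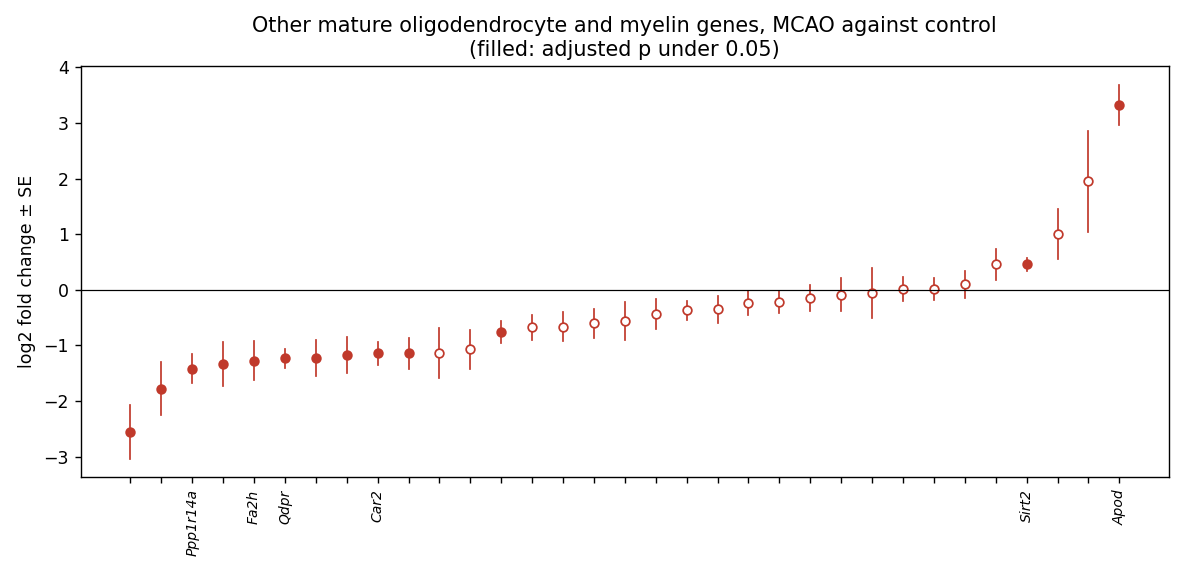
Log2 fold change with its SE (y axis) of the 33 other mature oligodendrocyte and myelin genes in MCAO against control, ordered by value, with the genes named in the text labelled. Filled points passed an adjusted p of 0.05. Of the filled points 11 lie below 0 and 2 above, Sirt2 and Apod.

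Against 9.81% of all genes tested, 2 of 12 genes of myelin lipid synthesis fell in MCAO against control. None rose, and the median of the list was -0.02. Those 2 were Ugt8a and Fa2h, which makes the hydroxylated fatty acids of galactosylceramide and fell by 1.27 ± 0.35 (edgeR adjusted p = 0.0327). In hypidone against MCAO 1 fell, Degs1, the ceramide desaturase, by 0.38 ± 0.10 (edgeR adjusted p = 0.0375). There 8.28% of all genes tested fell. Of 10 genes of the node and paranode, where the sheath meets the axon, 1 fell in MCAO and rose in hypidone against MCAO, a share near that of all genes (9.81% lower and 8.23% higher). It was Ank3, the ankyrin of the node, at -0.53 ± 0.15 (edgeR adjusted p = 0.0360) and 0.53 ± 0.15 (edgeR adjusted p = 0.0424).

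Among 12 transcription regulators of the oligodendrocyte lineage, 2 fell in MCAO against control and none rose, with a median of -0.17. Over all genes tested, 9.81% fell in that comparison. Sox8 was at 43.8, 47.5 and 45.9 CPM in the controls, at 24.3, 21.3 and 23.5 CPM in MCAO, and at 50.2, 43.0 and 38.1 CPM in hypidone. It fell by 0.99 ± 0.13 (edgeR adjusted p = 0.00418) and rose by 0.92 ± 0.13 in hypidone against MCAO (edgeR adjusted p = 0.00551), the only call of the 12 there. In that comparison 8.23% of all genes tested rose. Carm1, an arginine methyltransferase, fell by 0.48 ± 0.12 in MCAO (edgeR adjusted p = 0.0266). The regulators most tied to the myelin genes, named after their values were seen, were not called. Myrf had a log2 fold change of 0.53 ± 0.37 (edgeR adjusted p = 0.334), Sox10 -0.15 ± 0.31 (edgeR adjusted p = 0.754) and Olig2 -0.26 ± 0.19 (edgeR adjusted p = 0.351).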

How the data were processed

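RNA-seq of 9 mouse brain libraries was analysed. The authors deposited raw read counts per gene symbol, FPKM values, and their differential expression results as linear fold changes (ratios of group levels) with q-values. The build mm10 and the tool DESeq2, named without a version, come from the submitters' processing notes. The aligner, counter and strand setting were not given in the sources used here. Each column name was the title of a sample, and 0 columns were left unmatched.

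Counts were tested with edgeR 4.0.16 in R 4.3.3 (filterByExpr, TMM, glmQLFTest, group as the only term, 9 libraries, two-sided). SE is the log2 fold change divided by the square root of F. Log2 CPM used a prior count of 2. The fit was tested on simulated data. Relative levels and count ratios were compared by exact permutation over libraries. Alternatives used DESeq2 1.42.0, limma 3.58.1, other scalings and filters, FPKM plus 1, and fewer libraries. No 2 libraries of 1 group agreed within counting noise (chi-square of at least 15.2 per degree of freedom), so none was treated as a repeat deposit; this does not show that they are separate animals.

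The members and lists were chosen with earlier results of these data known. From each list, the called genes with the lowest p, up to 4 per comparison, were named. As genes most like the members, the 8 with the highest Pearson r with the members' mean centred log2 CPM were taken. Some genes that these rules cover are not reported here. The meningeal list was added after seeing the data. Of 9 mitochondrial transcripts meant to show RNA quality, 0 were in the table.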

Additional observations from a re-analysis of the deposited data

How the results depend on the processing

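Each member's fold change was recomputed under 20 other settings, 522 values in all. The 4 fold changes called in the main comparisons gave 79 of these values, of which 23 lost the threshold and 0 changed sign. Of the 443 values of uncalled fold changes, 16 gained the threshold and 15 changed sign, and none was called in hypidone against control. In MCAO against control, 3 members and 20.4% of all genes were called in the main fit. Limma voom with quality weights called 5 members (1 higher, 4 lower) and 50.3% of all genes. Scaling to the 33 other oligodendrocyte genes called 2 members (Cldn11 higher, Opalin lower) and 17.8% of all genes. The fit with only the 6 libraries compared called 1 member and 4.71% of all genes. With a single library left out, 1 to 3 members and 7.26% to 28.5% of all genes were called. In hypidone against MCAO, 1 member and 16.5% of all genes were called in the main fit. Voom weights called 6 members (2 higher, 4 lower) and 51.7% of all genes. The fit without control 5 and MCAO 5 called 4 members (2 higher, 2 lower) and 32.3% of all genes. The list scaling called 0 members and 6.95% of all genes. A single library left out gave 0 to 2 members and 3.65% to 25.8% of all genes. Leaving out both libraries and the list scaling were chosen after seeing the data. Opalin was called in MCAO against control in every setting except the replicate block. The titles give control and MCAO the same numbers. Deviations from the group means correlated at 0.12, 0.12 and -0.04 for same-numbered libraries 4, 5 and 6. Controls 4 and 5 correlated best with the MCAO library of the same number, and control 6 with MCAO 4 (0.12). Such a check cannot decide whether the numbers are pairs, and the main fit did not take them as pairs. With the replicate block 0 members and 0 of 14489 genes were called, and Opalin had an edgeR adjusted p of 0.0775. The sign of uncalled members was not stable in MCAO against control. Mal, 0.01, was -0.000271 with no filter, -0.00121 with only the groups compared, and -0.20 to 0.36 with a library left out. Mbp was 0.31 with voom weights, 0.44 without control 5 and MCAO 5, 0.37 with the list scaling, and -0.44 to 0.19 with a library left out. Mobp was -0.061 to 0.67 with a library left out, and Cnp 0.13 with the list scaling. In hypidone against MCAO, Cnp was 0.000529 without control 5 and MCAO 5 and -0.22 to 0.015 with a library left out. The list scaling moved the median of all genes to 0.46 in MCAO against control, where Cldn11 was higher by 0.92 (edgeR adjusted p = 0.0428), while Mog, -0.44, and Ugt8a, -0.82, were not called (edgeR adjusted p = 0.241 and 0.0522). The causes of these shifts were not tested. With 3 libraries a group, exact tests cannot go below 0.1, and the lowest member count was 260.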

Other observations

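Genes of the earlier stages of the oligodendrocyte lineage were described as well. Of 10 genes of newly formed oligodendrocytes, 2 rose in MCAO against control and none fell, while 10.6% of all genes tested rose. The median log2 fold change of the 10 was 0.48, against 0.01 for all genes. Cemip2, a hyaluronidase, rose by 0.79 ± 0.20 (edgeR adjusted p = 0.0244) and Itpr2, a calcium release channel, by 0.94 ± 0.25 (edgeR adjusted p = 0.0290). Both fell in hypidone against MCAO, by 0.79 ± 0.20 and 0.88 ± 0.25 (edgeR adjusted p = 0.0274 and 0.0409), where 8.28% of all genes tested fell. Of 12 genes of oligodendrocyte precursors, Vcan, a matrix proteoglycan, rose in MCAO by 1.52 ± 0.29 (edgeR adjusted p = 0.0101). Megf11 fell by 1.29 ± 0.26 (edgeR adjusted p = 0.0125) and Cspg5, another proteoglycan, by 0.72 ± 0.18 (edgeR adjusted p = 0.0257). Over all genes tested, 20.4% passed the threshold in MCAO against control and 16.5% in hypidone against MCAO. In hypidone against MCAO Vcan fell by 1.40 ± 0.29, while Megf11 rose by 1.42 ± 0.26 and Cspg5 by 0.82 ± 0.18 (edgeR adjusted p = 0.0157, 0.0113 and 0.0199). Against 10.6% of all genes tested, 5 of 11 genes known from oligodendrocytes in injured tissue rose in MCAO and none fell. Their mean log2 CPM was 4.87 in MCAO 4, within the control range of 4.86 to 5.21, and 6.99 in MCAO 5 and 6.23 in MCAO 6, the libraries with the highest means of phagocytic microglia and reactive astrocyte genes. Serpina3n, a protease inhibitor, rose by 3.63 ± 0.99 (edgeR adjusted p = 0.0332) and Sgk1, a stress kinase, by 1.47 ± 0.18 (edgeR adjusted p = 0.00370). Serpina3n is also a marker of reactive astrocytes, of whose 10 genes 9 rose in MCAO. In hypidone against MCAO Serpina3n fell by 4.08 ± 1.01 and Sgk1 by 1.51 ± 0.18 (edgeR adjusted p = 0.0278 and 0.00419), and these comparisons share the MCAO libraries.

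Outside these lists, the genes whose levels followed the members' mean most closely over the 9 libraries were Trim59, with a Pearson r of 0.96, Rnf122 (0.96), Bcl11b (0.95), Sema5a (0.95), Sstr4 (0.95), Prkcq (0.94) and Nedd4l (0.93). Each was highest in control 5. Over the 8 libraries without control 5 the r was 0.91 for Trim59, 0.92 for Rnf122, 0.87 for Bcl11b, 0.80 for Sema5a, 0.83 for Sstr4, 0.78 for Prkcq and 0.76 for Nedd4l. Bcl11b was at 136 CPM in control 5 and at 38.7 CPM or less elsewhere, and Sema5a at 137 CPM and at 35.0 CPM or less.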
